A study of Mus musculus with 2 samples.

Results

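Notch signalling was described here through 10 genes of a deposited table of 17359: the receptors Notch1, Notch2 and Notch3, the ligands Dll1, Dll3 and Jag1, the DNA-binding factor Rbpj, and the target genes Hes1, Hes5 and Hey1. The genes were chosen by symbol, and all 10 were found in the table. RNA was measured by sequencing in mouse neural stem cells that had received a scrambled siRNA (siSCR, genotype labelled control, 1 library) or an siRNA against Chd4 (siChd4, genotype labelled Chd4 knockdown, 1 library). Both groups carried an siRNA by transfection. The labels do not say from which age or tissue the cells came, nor which siRNA sequence, dose or harvest time was used. Chd4 is a chromatin remodelling ATPase of the NuRD complex, and the series concerns the nuclear pore protein Seh1 in neurogenesis.

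In Notch signalling, a ligand of the Delta or Jagged kind on one cell binds a Notch receptor on its neighbour. The receptor is then cut by an ADAM protease and by gamma-secretase, and its intracellular domain enters the nucleus, where it joins Rbpj and a Mastermind protein on DNA. In neural progenitors the resulting Hes and Hey repressors hold back proneural genes, which themselves promote Delta ligands. The pathway is known for keeping neural stem cells undifferentiated.

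There was 1 library per group, so no test between conditions was possible and each difference is one between these libraries, with no check against the spread between cultures. The libraries held 19816811 (siSCR) and 20072009 (siChd4) estimated counts. Chd4 itself, checked first, was at 249.5 TPM (transcript abundance per length, scaled to the same total in each library) in siSCR and 203 TPM in siChd4, a fold of 0.815 (95% counting interval 0.795 to 0.836). Its log2 ratio on TPM plus 1 was -0.29, and -0.14 once the trend of log2 ratios with transcript length was subtracted. Among the 12882 genes whose mean TPM was 1 or more, 19.4% had a lower log2 ratio than Chd4. The stem cell markers Nes (328 TPM in siSCR and 396 TPM in siChd4) and Sox2 (314 and 336 TPM) were present in both libraries, and all 8 stem cell markers listed reached that mean. Of these 8, 3 were higher in siChd4 and 5 lower, among them Slc1a3 (1254 and 878 TPM) and Ptprz1 (1518 and 1201.5 TPM).

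The promoters of 8 of the 10 genes were found in a RefSeq table of the mouse GRCm38.p6 assembly, which differs from the mm39 build of the expression table, in windows from 250 bases before to 50 bases after the start. They were searched on both strands for 3 motifs. These were the core Rbpj motif TGGGAA, the longer Rbpj motif GTGGGAA, which contains the core, and the palindromic E-box CAGCTG, of a kind that proneural factors bind. The windows below are those of Hes5, a target gene with paired Rbpj motifs, of Dll3, the member furthest above siSCR, and of Notch1, the member furthest below it. Capitals mark the motifs, and each window is printed along its gene's own strand. The Hes5 window is chr4:154960673-154960972 (plus strand), that of Dll3 chr7:28301736-28302035 (minus strand), and that of Notch1 chr2:26503773-26504072 (minus strand).
Hes5: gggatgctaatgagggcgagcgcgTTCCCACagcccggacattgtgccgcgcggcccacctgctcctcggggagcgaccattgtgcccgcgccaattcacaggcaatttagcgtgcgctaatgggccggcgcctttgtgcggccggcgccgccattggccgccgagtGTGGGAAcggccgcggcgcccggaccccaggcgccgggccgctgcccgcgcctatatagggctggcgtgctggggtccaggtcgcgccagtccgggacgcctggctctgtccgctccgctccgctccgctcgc
Dll3: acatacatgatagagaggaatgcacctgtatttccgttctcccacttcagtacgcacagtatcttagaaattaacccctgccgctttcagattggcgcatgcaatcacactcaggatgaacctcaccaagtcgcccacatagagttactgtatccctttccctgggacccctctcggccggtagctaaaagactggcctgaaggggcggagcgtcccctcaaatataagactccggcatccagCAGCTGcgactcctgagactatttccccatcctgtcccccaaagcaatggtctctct
Notch1: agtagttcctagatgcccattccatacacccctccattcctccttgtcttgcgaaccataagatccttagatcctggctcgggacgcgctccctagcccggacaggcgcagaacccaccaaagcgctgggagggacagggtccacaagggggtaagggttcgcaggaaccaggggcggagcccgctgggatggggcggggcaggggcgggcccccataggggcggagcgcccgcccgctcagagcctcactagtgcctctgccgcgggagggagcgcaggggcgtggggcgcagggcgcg

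The Hes5 window held the longer Rbpj motif at 2 places, with first bases 226 and 83 bases before the start and on opposite strands. At least 1 copy was found in 6.38% of the 32851 promoter windows in the table, and 2 or more in 0.256%. Among the members' windows, none but that of Hes5 held the longer motif. The core motif was found in both Rbpj windows as well, which overlap and share a site, and 25.6% of all windows held it. The E-box was found in the Dll3 window 7 bases before the start, in the Jag1 window and in 1 of the 2 Dll1 windows, against 16.3% of all windows. The windows of Notch1, Notch2 and Notch3 held none of the 3 motifs. A match describes these letters only and is not evidence of binding.

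The receptors were lower in the siChd4 library, Dll3 was higher, and the target genes were close to equal. Of the 10 genes, 0 reached a difference of 1.5-fold on the TPM plus 1 scale, on which 6.75% of the 12882 genes were higher and 4.47% lower by that much. Intervals are exact Clopper-Pearson limits from the estimated counts and cover counting error only. By such an interval wholly to one side of 1, 4 members were lower (Notch1, Notch2, Notch3 and Rbpj) and 1 was higher (Dll3). The same held for 34.1% of all genes on the lower side and 25.1% on the higher side, so an interval to one side of 1 was common in these libraries. The members' median log2 ratio of siChd4 over siSCR was -0.04, and that of all 12882 genes was also -0.04. In bulk RNA, fewer cells that hold a transcript and less of it per cell cannot be told apart.

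**Figure D1:**
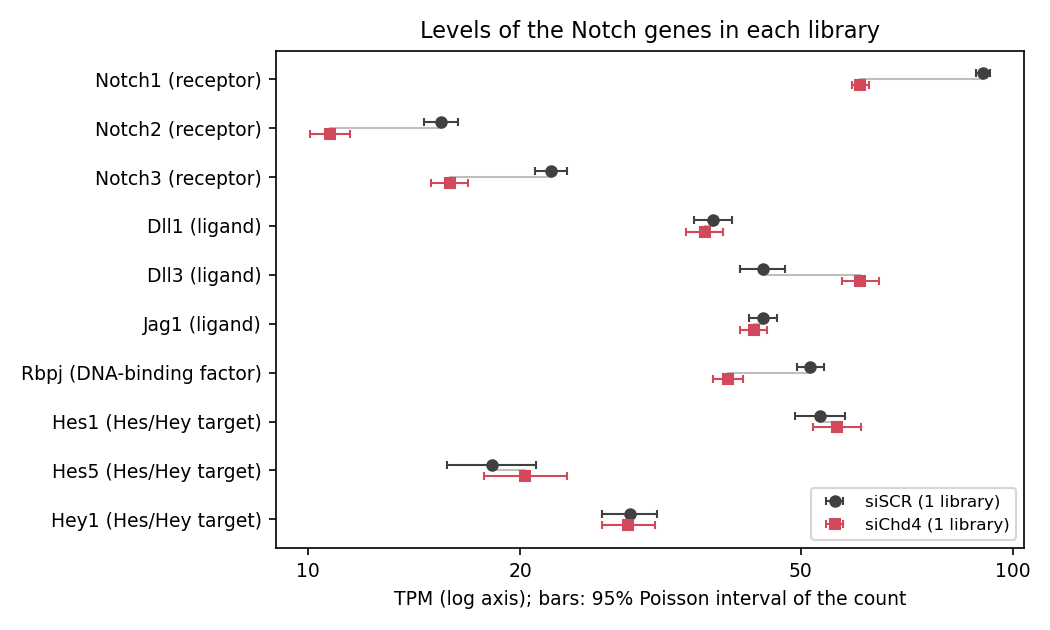
Level of each Notch gene in TPM (log axis) in the siSCR library (circles) and the siChd4 library (squares), with 95% Poisson intervals of the count. The intervals of Notch1, Notch2, Notch3, Dll3 and Rbpj do not overlap between the libraries, and those of the other genes do.

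Notch1 (Entrez 18128), the most abundant of the receptors, was at 90.8 TPM in siSCR and 60.8 TPM in siChd4, from 6759 and 4775 estimated counts. Its fold was 0.670 (0.645 to 0.695), just inside the 1.5-fold limit, with a log2 ratio of -0.57 against a limit of 0.58 in size. Of all genes, 4.74% had a lower log2 ratio. Notch3 (Entrez 18131), a receptor that vascular mural cells also carry, was at 22.1 TPM in siSCR and 15.9 TPM in siChd4, a fold of 0.718 (0.662 to 0.778). Notch2 (Entrez 18129), a receptor of quiescent neural stem cells among others, was at 15.5 TPM in siSCR and 10.7 TPM in siChd4, a fold of 0.695 (0.638 to 0.757). The 3 receptors thus had folds within a narrow range, and their intervals overlapped for Notch1 with Notch2 and Notch3. Notch4, a receptor of endothelial cells, was at 0.41 TPM in siSCR and 0.51 TPM in siChd4 and did not reach the minimum mean TPM.

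Because the receptors moved by similar folds, the make-up of the receptor pool was nearly the same in both libraries. Summed over Notch1 to Notch4, receptor transcripts were at 128.7 TPM in siSCR and 87.9 TPM in siChd4, a fold of 0.683. Notch1 made up 70.5% of that sum in siSCR and 69.1% in siChd4. The share of Notch3 was 17.2% and 18.1%, and that of Notch2 was 12% and 12.2%.

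The receptor transcripts are among the longest in the table, and long transcripts as a whole were lower in siChd4. Their lengths, taken from the ratio of counts to FPKM, were 9.44 kb (Notch1), 10.5 kb (Notch2) and 8.0 kb (Notch3), longer than 97.4%, 98.2% and 95.2% of the genes. The median log2 ratio was -0.21 over the 1288 longest genes (the longest 10%) and 0.01 over the shortest 10%. Among those longest genes, 10.3% had a lower log2 ratio than Notch1, 17.1% a lower one than Notch2 and 19.9% a lower one than Notch3, and 60.6% had an interval wholly below 1. With the trend in length subtracted, the log2 ratios were -0.34 for Notch1, -0.24 for Notch2 and -0.25 for Notch3, against -0.57, -0.49 and -0.45 without. The part of length in the lower receptor levels was not tested beyond this subtraction.

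**Figure D2:**
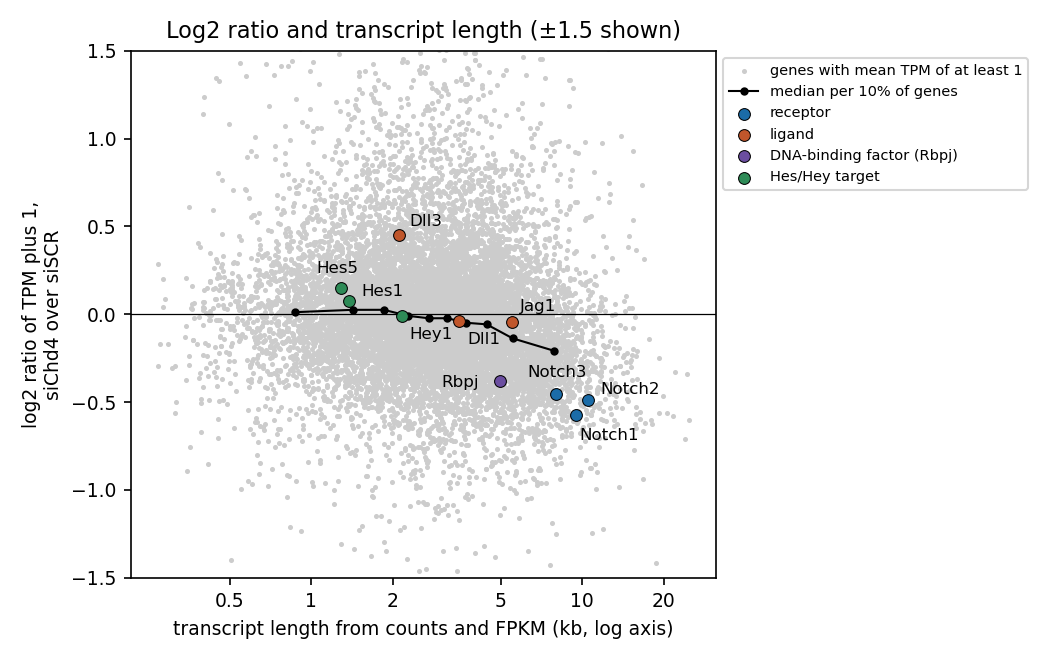
Log2 ratio of TPM plus 1 (siChd4 over siSCR) against transcript length in kb (log axis) for genes that reached the minimum mean TPM (grey), with medians along length (black line, 10% of genes per point) and the Notch genes in colour. The 3 receptors lie at the long end and below the line, Rbpj lies below it at 4.96 kb, and the Hes and Hey genes lie near 0 at the short end.

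Dll3 (Entrez 13389), a divergent Delta-like protein known for acting within the cell against Notch signalling, was the 1 ligand among the members with an interval wholly above 1. It was at 44.2 TPM in siSCR and 60.8 TPM in siChd4, from 736 and 1069 counts, a fold of 1.38 (1.25 to 1.51) and a log2 ratio of 0.45. Of all genes, 90.1% had a lower log2 ratio. Dll1 (Entrez 13388), the Delta ligand of differentiating progenitors, was at 37.6 TPM in siSCR and 36.6 TPM in siChd4, a fold of 0.973 (0.893 to 1.06). Jag1 (Entrez 16449), a Jagged ligand of the stem cell niche, was at 44.2 TPM in siSCR and 42.9 TPM in siChd4, a fold of 0.971 (0.911 to 1.03). The intervals of both Dll1 and Jag1 include 1.

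Other ligands of the pathway were scarce or higher in siChd4. The remaining canonical ligands were Dll4, of blood vessel sprouts, at 1.67 TPM in siSCR and 1.63 TPM in siChd4, and Jag2 at 0.85 and 2.07 TPM. Jag2 had 29.0 and 81.0 counts, a fold of 2.44 (1.58 to 3.86), and was past 1.5-fold. Summed over the 5 canonical ligands, the level was 128.4 TPM in siSCR and 143.9 TPM in siChd4, and Dll3 made up 34.4% and 42.2% of it. Among all 12882 genes, 25.1% had an interval wholly above 1 and 6.75% were past 1.5-fold on the higher side. Of 7 genes listed as non-canonical ligands, 6 reached the minimum mean TPM, all 6 had intervals above 1, and 3 were past 1.5-fold. Those were Mfap2, a microfibril protein (8.55 TPM in siSCR and 20.5 TPM in siChd4), Dlk2 (1.21 and 2.88 TPM) and Egfl7 (5.26 and 9.53 TPM). The most abundant were Dner, a neuronal transmembrane protein with EGF-like repeats, at 204 TPM in siSCR and 244 TPM in siChd4, and the adhesion protein gene Cntn1, at 69.6 and 99.97 TPM. Markers of neurons, which express several of these ligands, were higher as well, with log2 ratios above 0 for all 8. They summed to 486 TPM in siSCR and 641 TPM in siChd4, mostly from Map2 (427 and 516 TPM, 1.21-fold). The largest folds were those of Tubb3 (8.7 and 40.02 TPM, 4.6-fold, 3.76 to 5.67) and Dcx (3.71 and 10.88 TPM, 2.93-fold, 2.54 to 3.38). The intervals of Rbfox3 and Stmn2 include 1. The part of neurons in the ligand levels was not tested.

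Rbpj (Entrez 19664), through which all the receptors act on DNA, was at 51.6 TPM in siSCR and 39.4 TPM in siChd4, from 1956 and 1677 counts. The TPM fold was 0.764 (0.715 to 0.816), whereas the CPM ratio, which takes no account of length, was 0.847 (0.793 to 0.904). The transcript length behind the TPM was 4.81 kb in siSCR and 5.11 kb in siChd4, the largest shift in length among the members by ratio. The scales also differ for a gene with no such shift: Notch1 had a CPM ratio of 0.697 and a TPM fold of 0.670. On either scale Rbpj was lower in siChd4. Rbpj has 3 annotated pseudogenes, none with a row among the genes analysed here, and reads shared with them could have been split by the authors' counting.

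The partners of Rbpj stayed within 1.5-fold on the TPM plus 1 scale. Among all 12882 genes, 34.1% had an interval wholly below 1 and 25.1% one wholly above. Of 13 other genes listed for the nuclear complex, all reached the minimum mean TPM and 0 were past 1.5-fold. Of these 13, 5 had intervals below 1 and 2 above, and the median log2 ratio was -0.07. The most abundant were the corepressor gene Ctbp1 (303 TPM in siSCR and 297 TPM in siChd4) and the histone deacetylase genes Hdac2 (279.8 and 278 TPM) and Hdac1 (121 and 159 TPM). Hdac1 and Hdac2 also belong to NuRD and other complexes. Hdac1 had a fold of 1.31 (1.24 to 1.40), one of the 2 with an interval above 1. The other, picked out after its value was seen, was the scarce Mastermind gene Maml3 (0.90 TPM in siSCR and 1.69 TPM in siChd4, from 49.1 and 91.1 counts), with a TPM fold of 1.88 (1.32 to 2.72) but a log2 ratio of 0.50 on TPM plus 1.

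The target genes were nearly equal in the libraries although receptor and Rbpj transcripts were lower in siChd4. Hes1 (Entrez 15205), a repressor that maintains neural progenitors, was at 53.3 TPM in siSCR and 56.3 TPM in siChd4, from 578 and 644 counts, a fold of 1.06 (0.944 to 1.19). Hes5 (Entrez 15208), the target gene of neural stem cells whose promoter window with paired Rbpj motifs is printed above, was at 18.2 TPM in siSCR and 20.3 TPM in siChd4. It had the fewest counts of the members, 189 and 215, and its fold of 1.12 had the wide interval of 0.914 to 1.37. Hey1 (Entrez 15213), a related repressor, was at 28.7 TPM in siSCR and 28.5 TPM in siChd4, a fold of 0.994 (0.877 to 1.13). All 3 intervals include 1, and none of them reaches the folds of the receptors. A gene that overlaps Hey1 in the annotation, LOC115489673, had 7.12 counts in siSCR and 4.88 in siChd4, against 487 and 510 for Hey1.

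**Figure D3:**
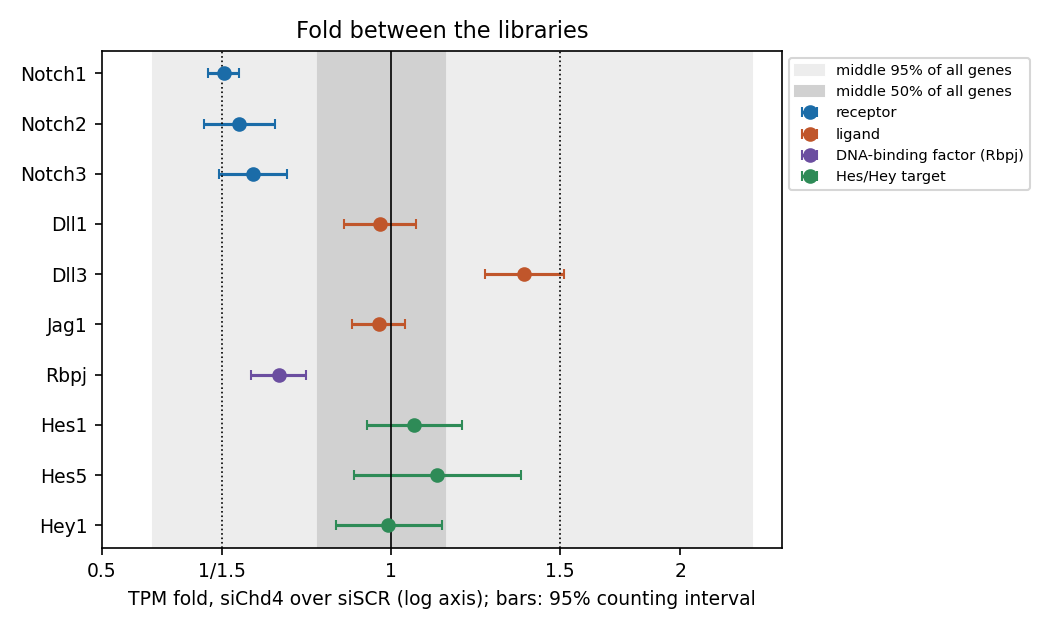
TPM fold of siChd4 over siSCR (log axis) with 95% counting intervals, coloured by role, over bands that hold the middle 50% (0.839 to 1.14) and the middle 95% (0.566 to 2.38) of all genes. Dotted lines mark 1.5-fold: the receptors lie close to the lower line, Dll3 lies below the upper line, and the targets, Dll1 and Jag1 lie within the inner band.

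Set against each other within a library, targets and ligands were higher relative to receptors in siChd4. Hes1, Hes5 and Hey1 together were at 100.2 TPM in siSCR and 105 TPM in siChd4, which is 0.778 and 1.196 TPM per TPM of receptor. For the canonical ligands these ratios were 0.998 and 1.64. The higher ligand sum in siChd4 was mostly Dll3 (44.2 TPM in siSCR and 60.8 TPM in siChd4). The scarce Jag2 was also higher (0.85 and 2.07 TPM), while Dll1, Jag1 and Dll4 were near equal. The make-up of the target sum varied little, with Hes1 at 53.2% and 53.6%, Hey1 at 28.6% and 27.1%, and Hes5 at 18.2% and 19.3%. These ratios compare transcript levels per length and say nothing of protein or of signalling. The receptors are also longer transcripts than the targets and ligands. The median log2 ratio was -0.21 over the longest 10% of genes and 0.01 over the shortest 10%. The part of length in these ratios was not tested.

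**Figure D4:**
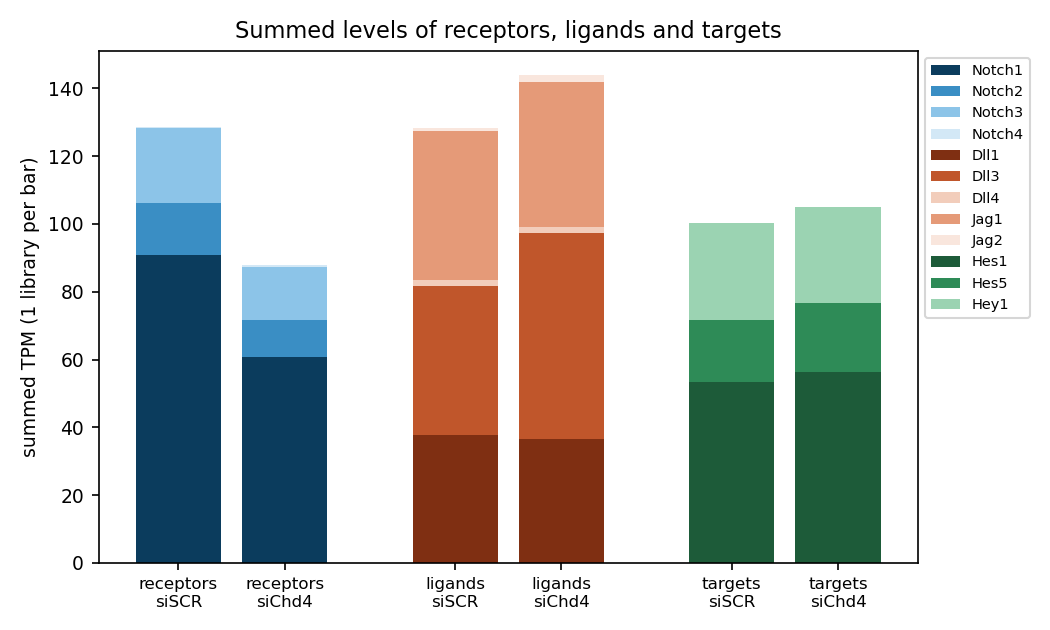
Summed TPM of the Notch receptors, the canonical ligands and the targets Hes1, Hes5 and Hey1 in each library (1 library per bar), stacked by gene. The receptor bar is 128.7 TPM in siSCR and 87.9 TPM in siChd4, while the target bars are 100.2 and 105 TPM.

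The order of the members by TPM differed between the libraries in a few places. In siSCR it was Notch1, Hes1, Rbpj, Jag1, Dll3, Dll1, Hey1, Notch3, Hes5 and Notch2. Neighbours whose Poisson intervals overlapped were Hes1 with Rbpj, Jag1 with Dll3, Notch3 with Hes5, and Hes5 with Notch2. In siChd4, Notch1 and Dll3 were both at 60.8 TPM and were followed by Hes1, Jag1, Rbpj, Dll1, Hey1, Hes5, Notch3 and Notch2. There, intervals overlapped between Notch1 and Dll3, Dll3 and Hes1, Jag1 and Rbpj, and Rbpj and Dll1. Notch1 stood apart from all other members in siSCR but not in siChd4, and Hes5 lay below Notch3 in siSCR and above it in siChd4.

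Of the other Hes and Hey genes, Hes6 alone reached the minimum mean TPM. Hes6, which is known to oppose Hes1 and to favour differentiation, was at 145.9 TPM in siSCR and 117 TPM in siChd4, a fold of 0.802 (0.744 to 0.866). It was more abundant than each of the member targets in both libraries. Among further genes reported as Notch targets, Sox9, a transcription factor of stem cells and glia, was past 1.5-fold (51.0 TPM in siSCR and 81.1 TPM in siChd4). The radial glia gene Fabp7 was at 6105 and 7004 TPM (1.15-fold, 1.13 to 1.16), and the cyclin gene Ccnd1 at 1609 and 1629 TPM (1.012-fold, 0.9997 to 1.025).

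Of 9 genes listed as opposed by Hes proteins, 8 were in the table and 5 reached the minimum mean TPM. Insm1, a zinc finger gene of newborn neurons and intermediate progenitors, was past 1.5-fold on the higher side (26.9 TPM in siSCR and 43.6 TPM in siChd4, 1.62-fold, 1.47 to 1.79). Olig2 was at 889.6 TPM in siSCR and 880.0 TPM in siChd4. The proneural genes Neurog1 and Neurog2 were at no more than 0.22 TPM in either library.

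Processing enzymes of receptor and ligand stayed within 1.5-fold on the TPM plus 1 scale. Among all 12882 genes, 34.1% had an interval wholly below 1 and 25.1% one wholly above. Of 15 genes that mature or cut the receptors, 14 reached the minimum mean TPM, 0 were past 1.5-fold, and the median log2 ratio was 0.06. By their intervals, 4 of the 14 were below 1 and 2 above, while 8 included 1. Lfng, a glycosyltransferase that tunes which ligand a receptor answers to, was the most abundant and was at 201 TPM in siSCR and 154.7 TPM in siChd4 (0.769-fold, 0.732 to 0.808). Adam10, the protease of the first cut, was at 156 and 157.8 TPM (1.0095-fold, 0.973 to 1.05), and Psenen, a gamma-secretase subunit, at 139 and 127 TPM (0.915-fold, 0.821 to 1.02). Of the 4 ubiquitin ligase genes that activate ligands, 2 had intervals below 1 and 1 above, and 0 were past 1.5-fold. Neurl1b came closest, at 28.7 TPM in siSCR and 19.3 TPM in siChd4 (0.671-fold, 0.619 to 0.729), and Mib1, the main such ligase, was at 68.1 and 57.7 TPM (0.847-fold, 0.812 to 0.883).

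Inhibitors and turnover factors held the widest differences in the pathway. Of 12 listed, 3 were past 1.5-fold on the higher side and 1 on the lower side, and the median log2 ratio was -0.06. Among all 12882 genes, 6.75% were that much higher and 4.47% that much lower. Lnx1, a ubiquitin ligase known to target the Notch inhibitor Numb, was at 24.1 TPM in siSCR and 73.9 TPM in siChd4, a fold of 3.06 (2.75 to 3.42). Dtx3, of the Deltex family, was at 51.2 and 93.5 TPM (1.83-fold, 1.68 to 1.99), and Numbl, a relative of Numb, at 12.7 and 20.1 TPM (1.59-fold, 1.37 to 1.84). Aak1, a kinase of endocytosis that acts with Numb, was at 19.8 and 11.9 TPM (0.600-fold, 0.551 to 0.653). The abundant Dtx4 (68.2 and 63.1 TPM) and the ubiquitin ligase gene Itch (54.9 and 46.7 TPM) lay below 1.5-fold.

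Over all 74 other pathway genes listed, 72 were in the table and 62 reached the minimum mean TPM. Of these 62, 9 were past 1.5-fold on the higher side and 1 on the lower side, and the median log2 ratio was 0.003. Of all 12882 genes, 6.75% were that much higher and 4.47% that much lower. The 10 genes described above thus held none of the differences past 1.5-fold in the pathway.

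**Figure D5:**
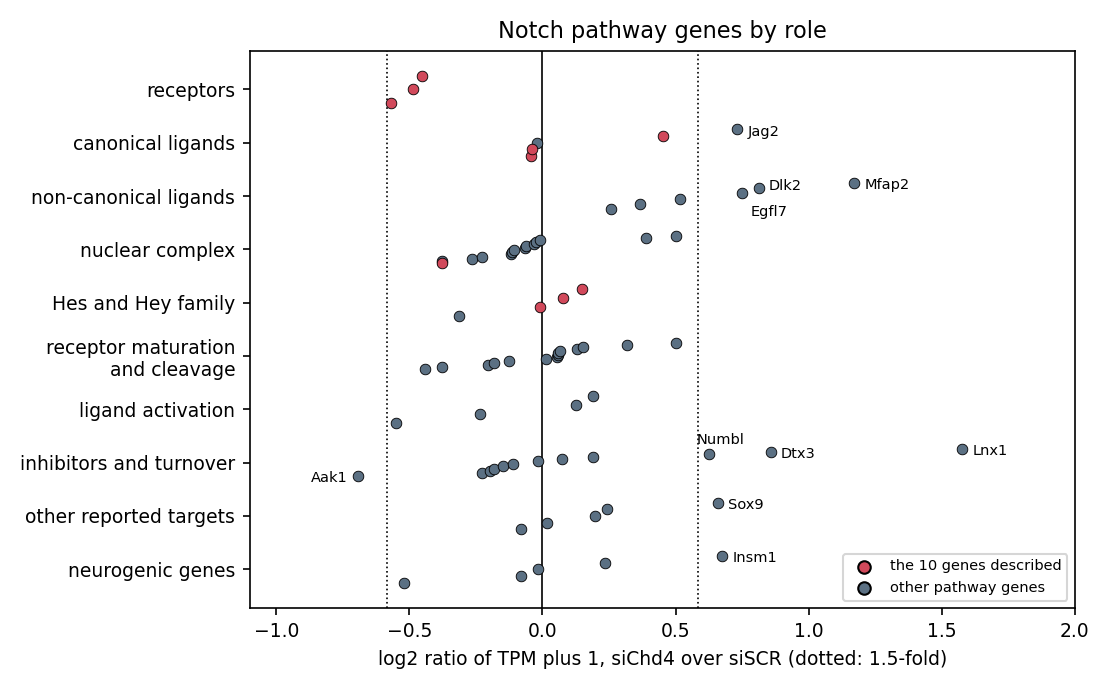
Log2 ratio of TPM plus 1 (siChd4 over siSCR) for the Notch pathway genes that reached the minimum mean TPM, by role, with the 10 genes described in red and the others in grey. Dotted lines mark 1.5-fold, and the 10 genes past them, 9 higher and 1 lower, are named.

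Markers of vascular cells, which also carry Notch genes, were low. The 7 mural markers, of cells that express Notch3, summed to 10.3 TPM in siSCR and 17.2 TPM in siChd4. Most of that came from Acta2 (7.01 and 8.93 TPM, 1.27-fold, 0.954 to 1.72) and Tagln (2.14 and 6.53 TPM, 3.05-fold, 1.95 to 4.95). Pdgfrb was at 0.12 and 0.16 TPM. The endothelial list (7 of 8 markers in the table) summed to 3.77 and 5.89 TPM, with Cdh5 at 0.03 TPM in both. Ependymal markers summed to 39.1 and 35.1 TPM, nearly all from Foxj1 (34.0 and 29.4 TPM). Microglial markers summed to 7.72 and 36.7 TPM, nearly all from P2ry12 (6.84 and 36.1 TPM), while Cx3cr1 was at 0.03 TPM in both. Oligodendrocyte lineage markers summed to 44.0 and 80.5 TPM, and all 6 that reached the minimum mean TPM were above 0 in log2 ratio. The astrocyte list summed to 545 and 555 TPM, with 4 of its 6 markers below 0: Gja1 was at 105.5 and 40.8 TPM and Slc1a2 at 94.1 and 58.4 TPM, while Aldh1l1 was at 309 and 421 TPM. The stem cell list summed to 6897 and 7777 TPM with 3 of its 8 markers above 0 and 5 below. Vim, at 3340 and 4835 TPM, carried the higher sum in siChd4. The part of such cells in the levels of the Notch genes was not tested.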

How the data were processed

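RNA from 2 mouse neural stem cell libraries, 1 per group, was analysed from 1 deposited table. Per the file headers, the authors deposited FPKM, TPM and read counts per gene for each library. The authors' counts are estimated counts: 16.0% (siSCR) and 17.8% (siChd4) of them are whole numbers. Per the submitters' processing notes, mm39 was the genome build. No aligner, counter or strand setting is given in the sources used here. Groups came from the sample titles.

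A pseudocount of 1 was added to TPM, and the main value was the log2 ratio, siChd4 over siSCR, for genes whose mean TPM was 1 or more. It understates differences of low genes. Folds of TPM carry exact Clopper-Pearson 95% intervals from counts rounded to whole numbers, and levels carry exact Poisson intervals. Both describe counting error only: without molecular identifiers, reads need not be independent molecules. The fold interval was also run on simulated Poisson counts. Such counts meet its own assumption, so that run says nothing of spread beyond counting error. The members and lists were chosen with earlier results of these data known. Beside the 10 members, genes were named if past 1.5-fold or if among the 2 most abundant of a role (3 in roles of over 10 genes). Of the genes this rule takes, 1 is not reported here. No gene was named for a pattern like that of a member, since 2 libraries give no measure of likeness. The stem cell, neuron and other marker lists were used for levels. Neurog1, Neurog2, Notch4 and the marker genes were named outside this rule, after their values were seen. Other settings were a pseudocount of 0.1, median-of-ratios, upper quartile and TMM scaling (edgeR 4.0.16), FPKM, a subtracted length trend (lowess, span 0.3, statsmodels 0.14.6), other filters, a 2-fold limit and, chosen after seeing the data, the counting interval as a limit.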

Additional observations from a re-analysis of the deposited data

How the results depend on the processing

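With 1 library per group, leaving out a library was not possible. No paired analysis was possible because the groups share no second library. None of the 10 members passed 1.5-fold under any scaling, filter, pseudocount or length setting run. By the counting interval in place of the 1.5-fold limit, chosen after seeing the data, 1 of the 10 members was higher and 4 were lower. Of the 62 other pathway genes that reached the minimum mean TPM, 19 were higher and 18 lower. Among all 12882 genes, 25.1% were higher and 34.1% lower by that interval. At a 2-fold limit 2 of the other pathway genes were higher and 0 lower, and with the length trend subtracted 0 were at least 1.5-fold lower. A higher limit and a subtracted trend change these numbers by construction. Of 60 values of members under other settings, 53 stayed within their counting interval and 7 moved beyond it. Those that moved were of Notch1 (upper quartile scaling, FPKM and length trend subtracted), Rbpj (TMM scaling), and Notch2, Notch3 and Jag1 (length trend subtracted). Among all 60 values, the sign differed from the main value in 9, all of Dll1, Jag1 or Hey1, whose intervals include 1. Notch1, Notch2, Notch3 and Rbpj stayed below 0 and Dll3, Hes1 and Hes5 above it in all of these settings. The log2 ratio of Notch1 lay between -0.58 with a pseudocount of 0.1 and -0.34 with the length trend subtracted. Depth limits Hes5 most among the members, at 189 counts in siSCR.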

Other observations

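Pathway genes under the minimum mean TPM rest on few counts. Heyl was at 0.14 TPM in siSCR and 0.37 TPM in siChd4, from 4.97 and 13.98 counts, Hey2 at 0.77 and 0.58 TPM from 15 and 12 counts, and Hes3 at 0.05 and 0.47 TPM from 1 count and 7 counts. Hes7, an oscillating gene of somite formation, was at 0.67 and 0.66 TPM although its counts were 10.03 and 5.27, since the transcript length behind its TPM differed by a ratio of 0.519 between the libraries. The fringe gene Mfng had a fold of 1.45 (1.19 to 1.76) while Lfng had one of 0.769 (0.732 to 0.808), and Rfng was at 41.7 TPM in siSCR and 43.4 TPM in siChd4. Of the ADAM proteases, Adam17 had a fold of 0.731 (0.681 to 0.784) beside 1.0095 for Adam10. These genes were picked out after their values were seen.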
